A study of Mus musculus with 8 samples.

Results

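Axon guidance ligands and receptors are the secreted and membrane proteins that steer growing axons, migrating cells and vessels. They were followed here in choroid plexus of the fourth ventricle, the tissue of secretory epithelium and vascular stroma that makes cerebrospinal fluid, from mouse embryos at embryonic day 13. Members were found by symbol, in gene families picked when earlier results of these data were known. They are the genes with a single symbol in the array annotation that begins with Sema, Epha, Ephb, Efna, Efnb, Slit, Ntn or Nrp and a digit, or with Plxn or Unc5, and the genes Robo1, Robo2, Robo3, Dcc and Neo1. This gave 71 of the 18193 genes measured, and no filter on dim genes was applied. By their known functions 3 of the 71 are not guidance receptors. These are Unc50, which encodes a Golgi membrane protein, Unc5cl, a death-domain protein related to the Unc5 receptors, and Plxna4os1, an antisense RNA named after its neighbour. None of these 3 passed the test below.

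The samples were 4 arrays labelled Otx2 k.o., from an Otx2-deficient strain, and 4 labelled wildtype, numbered as biological replicates 1 to 4. Otx2 encodes a homeodomain protein that regulates transcription in forebrain, midbrain and choroid plexus, and the series asks how its loss alters that tissue. All embryos had a mixed strain background, came from shared litters, received no treatment and were of undetermined sex. The sources used here do not say how and when Otx2 was deleted or how many embryos each sample held.

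Levels are log2 values per probe set, so a difference of 1 is a 2-fold change, and levels of different genes are not compared. Array medians lay between 5.85 and 5.90. The only Otx2 probe set did not fall: it read 12.38, 12.46, 12.44 and 12.48 in the arrays labelled knockout against 12.00, 12.05, 11.97 and 11.85 in the wildtype arrays, a rise of 0.47 (SE 0.06, limma adjusted p = 0.000648). The sources used here do not place its probes relative to the deletion. Every direction below therefore rests on the labels, and the arrays are called knockout-labelled. The tissue label is the same for all arrays, so a group difference in choroid plexus epithelium markers cannot check it. Of the 23 such markers measured 19 were lower and 1, Otx2, was higher in the knockout-labelled arrays, with a median log2 difference of -0.98. Among them the folate receptor Folr1 fell by 1.12 (limma adjusted p = 3.77e-05), while the thyroid hormone carrier Ttr did not pass and read 14.17 ± 0.03 against 14.21 ± 0.04 (SD, n = 4 each, knockout-labelled first).

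These proteins work as ligand and receptor families. Semaphorins bind plexins, and most secreted semaphorins, those of class 3, also need a neuropilin as co-receptor. Ephrins are membrane-bound ligands of the Eph receptor tyrosine kinases and can signal back into the cell that carries them. Slits bind Robo receptors and mostly repel. Netrins attract through Dcc and neogenin and repel through Unc5 receptors. The choroid plexus is itself known as a source of Slit2 in the cerebrospinal fluid, and stroma and vessels use the same families for boundaries and branching.

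The guidance genes were more often higher than lower in the knockout-labelled arrays. Of the 71 members 26 rose, 5 fell and 40 did not pass (limma, Benjamini-Hochberg adjusted p under 0.05 over all genes). Over all genes 19.6% passed in either direction. The members that rose are 36.6%, where 7.84% of all genes were called higher, and those that fell 7.04%, where 11.7% of all genes were called lower. The median log2 fold change was 0.18 over the members and 0.00 over all genes. Among ligands 14 of 35 rose and 3 fell, and among receptors 12 of 33 rose and 2 fell, the remaining 3 members being the non-guidance genes. The number that fell was 2 without knockout-labelled replicate 1, and 3 without wildtype replicate 3 or without wildtype replicate 4. In these fits 9.34%, 9.66% and 8.98% of all genes were called lower. The largest fall was that of Sema3c and the largest rises were those of Sema3e, Sema3d and Sema5a, all semaphorins.

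**Figure D1:**
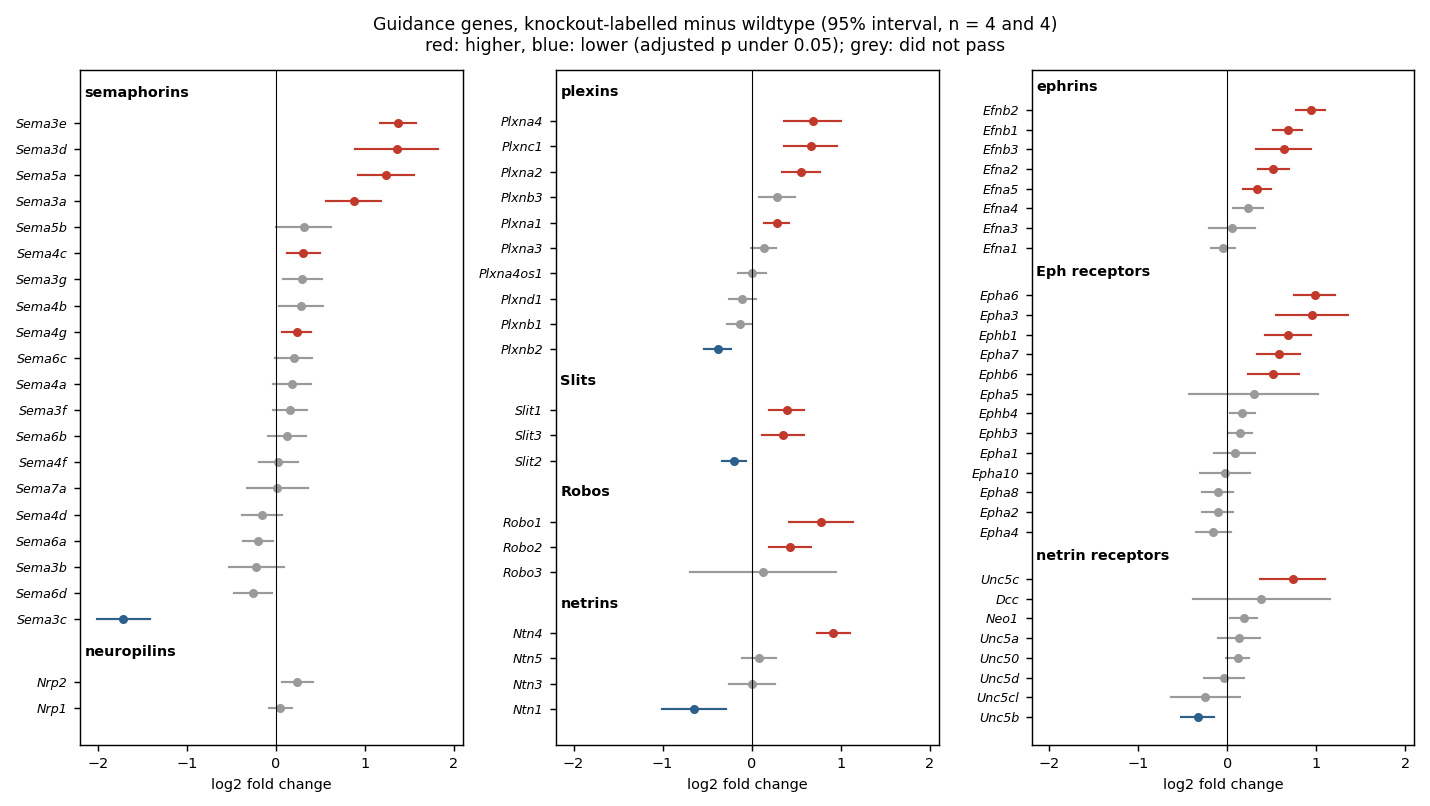
Log2 fold change of every member, knockout-labelled minus wildtype, grouped by family, with limma's 95% interval (4 arrays a group). Red members rose and blue members fell at adjusted p under 0.05, and grey members did not pass; Sema3c stands alone at -1.71, while 26 members are red.

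At 0.5 log2 units or more 19 members rose and 2 fell, where 3.08% of all genes rose and 5.32% fell by that much. In 31 members every knockout-labelled array lay above every wildtype array, and in 6 every one lay below. Over all genes these shares were 9.98% and 14.4%. Ephb6 was the only member that rose by 0.5 or more with overlapping groups. No member that failed the test had a difference of 0.5 or more.

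**Figure D2:**
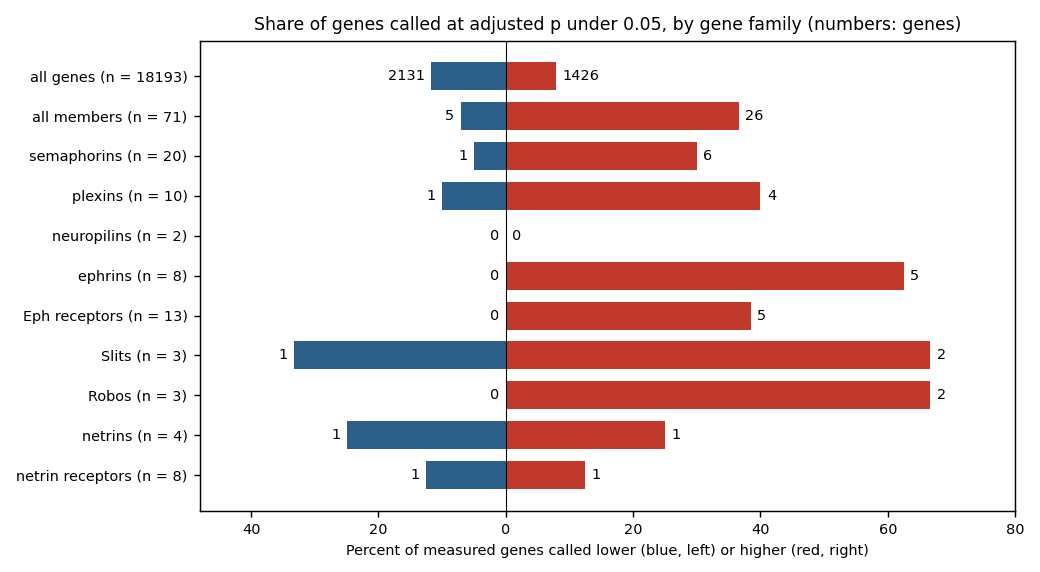
Percent of measured genes called higher (red, right) or lower (blue, left) in knockout-labelled arrays, for all genes, all members and each family, with the number of genes at each bar. All genes lean to the lower side (1426 higher, 2131 lower), whereas 5 ephrins and 5 Eph receptors rose and 0 fell.

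The secreted class 3 semaphorins moved apart from each other. Of 7 measured, Sema3a, Sema3d and Sema3e rose, Sema3c fell and Sema3b, Sema3f and Sema3g did not pass. Sema3c, which is known to guide neural crest cells to the cardiac outflow tract, read 9.91, 9.61, 9.18 and 9.43 in knockout-labelled replicates 1 to 4. Its wildtype values were 11.28, 11.21, 11.27 and 11.22. The wildtype arrays were close together, and even the highest knockout-labelled array was more than 1 log2 unit below them. The log2 fold change was -1.71 (SE 0.13, limma adjusted p = 3.36e-05), a 3.28-fold fall. A dimmer second probe set of Sema3c fell by 1.27 (adjusted p = 0.000130 over all probe sets).

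Sema3e, a ligand that binds plexin D1 without a neuropilin and patterns vessels, read 8.47, 8.33, 8.75 and 8.47 in the knockout-labelled arrays. In the wildtype arrays it read 7.18, 7.02, 7.19 and 7.16. It rose by 1.37 (SE 0.09, limma adjusted p = 1.66e-05), with no overlap, and all 3 of its other probe sets rose as well, by 1.40, 0.98 and 0.60. Sema3d read 6.88, 6.14, 7.13 and 6.95 against 5.29, 5.11, 5.63 and 5.63. It rose by 1.36 (SE 0.21, adjusted p = 0.00150), and knockout-labelled replicate 2 was the lowest of its group. Sema3a, the prototype repellent that collapses growth cones, read 7.82, 7.82, 7.96 and 7.96 against 6.92, 6.62, 7.29 and 7.24. Here the wildtype arrays were the more scattered, and the rise was 0.87 (SE 0.14, adjusted p = 0.00178).

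The class 3 genes that changed lie on 1 chromosome. In RefSeq's mouse annotation (GRCm38.p6, used for order only) Sema3d, Sema3a, Sema3e and Sema3c follow each other on chromosome 5, with 0, 3 and 15 protein-coding genes between neighbours. Of these 18 intervening genes 5 were measured. Cacna2d1, a calcium channel subunit, rose by 0.47, Pclo, a presynaptic scaffold, fell by 0.84 and the other 3 did not pass. Over all genes 7.84% were called higher and 11.7% lower. The 4 promoters are printed because these neighbours moved in opposite directions. Each line gives the 250 bases before the gene start in RefSeq's GRCm38.p6 table, on the plus strand, 5′ to 3′, with CG dinucleotides in capitals. They cover chr5:12382916-12383165 (Sema3d), chr5:13396534-13396783 (Sema3a), chr5:14025026-14025275 (Sema3e) and chr5:17574566-17574815 (Sema3c).
Sema3d: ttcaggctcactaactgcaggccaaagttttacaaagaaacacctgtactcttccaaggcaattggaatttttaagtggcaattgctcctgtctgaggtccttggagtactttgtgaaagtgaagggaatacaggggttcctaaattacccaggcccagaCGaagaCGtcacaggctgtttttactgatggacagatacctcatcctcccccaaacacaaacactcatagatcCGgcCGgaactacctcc
Sema3a: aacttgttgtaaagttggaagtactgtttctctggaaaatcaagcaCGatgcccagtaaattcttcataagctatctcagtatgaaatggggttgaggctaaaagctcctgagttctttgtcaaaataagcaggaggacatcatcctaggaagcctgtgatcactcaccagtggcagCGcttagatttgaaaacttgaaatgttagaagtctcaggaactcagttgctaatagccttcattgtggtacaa
Sema3e: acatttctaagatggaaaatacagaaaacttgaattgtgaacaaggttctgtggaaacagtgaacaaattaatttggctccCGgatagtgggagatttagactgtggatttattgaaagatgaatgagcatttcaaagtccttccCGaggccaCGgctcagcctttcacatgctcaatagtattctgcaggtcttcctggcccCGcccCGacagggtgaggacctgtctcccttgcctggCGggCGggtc
Sema3c: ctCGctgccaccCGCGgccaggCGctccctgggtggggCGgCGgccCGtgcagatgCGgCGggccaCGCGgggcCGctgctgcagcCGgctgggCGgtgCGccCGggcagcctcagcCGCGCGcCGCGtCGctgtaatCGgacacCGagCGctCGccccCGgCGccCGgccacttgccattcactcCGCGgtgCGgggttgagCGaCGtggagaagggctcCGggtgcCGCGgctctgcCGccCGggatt
The Sema3c window held 39 CG dinucleotides and 78.4% G and C. Those of Sema3d, Sema3a and Sema3e held 4, 2 and 7, with 46.8%, 40.8% and 48.0% G and C. The median over all 32851 windows in the table was 6 CG dinucleotides and 52.4% G and C, and over the 76 windows of the 60 members found there 15.5 and 64.4%. In CG count Sema3c lay above 98.4% of all windows, and Sema3d, Sema3a and Sema3e lay above 37.8%, 18.8% and 53.7%. CG-rich windows also belonged to members that rose, such as Slit3 (35, above 97.0%), Efna5 (32, above 95.4%), Efnb2 and Ephb6 (27 each, above 91.4%). The letters TAATCC, the core bound by Otx-type homeodomains, were searched on both strands. They were in 1 of the 76 member windows (1.32%), that of Robo3, which did not pass, and in 6.25% of all windows. In the 31 windows of the 26 called members they were in 0. Member windows hold more G and C than all windows (medians 64.4% and 52.4%), and the shares were not matched for this. They therefore cannot show whether members have fewer such sites.

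Among membrane semaphorins Sema5a changed most. This transmembrane semaphorin with thrombospondin repeats read 7.20, 6.76, 7.46 and 7.40 in the knockout-labelled arrays and 6.00, 5.86, 6.05 and 5.97 in the wildtype arrays. It rose by 1.23 (SE 0.14, limma adjusted p = 0.000272), without overlap, and its next brightest probe set rose by 1.04. Its relative Sema5b differed by 0.31 and did not pass (adjusted p = 0.156), although a dimmer probe set rose by 0.48 (adjusted p = 0.0101 over all probe sets) and Sema5b passed without knockout-labelled replicate 2 (0.45, adjusted p = 0.0113).

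Sema3b, Sema3f and Sema3g, the secreted semaphorins that did not pass, differed by -0.22, 0.16 and 0.30. Sema3b passed without knockout-labelled replicate 3 (-0.35, adjusted p = 0.0456), where its difference was over 1.5 times as large. Sema3f passed without knockout-labelled replicate 2 (0.23, 0.0359), and Sema3g without that array (0.35, 0.0278) or wildtype replicate 4 (0.36, 0.0395). In class 4, 2 of 6 rose by small amounts, Sema4c by 0.31 (limma adjusted p = 0.0291) and Sema4g by 0.23 (adjusted p = 0.0476). The call of Sema4c was lost without knockout-labelled replicate 1 or 3 and without wildtype replicate 2, 3 or 4 (adjusted p up to 0.0792). That of Sema4g was lost with the replicate number as a block (adjusted p = 0.0872), with arrays centred on their medians (0.0751) and with adjustment over all probe sets (0.0621). It was also lost without probe sets whose names end in _x_at, _s_at or _a_at (0.0532). The same held in 7 of 8 fits without 1 array, all but that without wildtype replicate 1. With the block Sema4b (0.28, adjusted p = 0.0163), Sema3g (0.30, 0.0195) and Sema6d (-0.26, 0.0329) passed instead. Sema4a, Sema4d and Sema4f did not pass (0.18, -0.16 and 0.03), while another probe set of Sema4d fell by 0.31 (adjusted p = 0.0203 over all probe sets). Of the 4 class 6 semaphorins, which act as ligands and receptors in cis and trans, 0 passed the main unblocked limma test. Of these, 2 had an unadjusted p under 0.05, and differences ran from -0.26 to 0.20. Sema6a passed as lower without knockout-labelled replicate 2 (-0.24, limma adjusted p = 0.0391), with weighted arrays and among genes above the median level. Sema6d also passed as lower with a variance prior that follows level and among genes above the median level. Sema7a, the GPI-anchored semaphorin, read 8.14 ± 0.23 against 8.13 ± 0.28 (SD, n = 4 each).

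The semaphorin receptors rose mainly in class A. Of 4 class A plexins, the usual partners of secreted and class 6 semaphorins, 3 rose. Plxna4 read 7.42, 7.73, 7.93 and 7.31 in knockout-labelled and 7.07, 6.68, 6.88 and 7.02 in wildtype arrays, a rise of 0.68 (SE 0.14, limma adjusted p = 0.00807). Plxna2 read 8.92, 8.97, 9.32 and 9.17 against 8.67, 8.54, 8.48 and 8.50, a rise of 0.55 (SE 0.09, adjusted p = 0.00299). In each gene the groups stood apart, and all 3 further probe sets of Plxna2 rose, by 0.45 to 0.63. Plxna1 rose by 0.28 (adjusted p = 0.0128), a call lost with the mean of its probe sets (adjusted p = 0.0651), and Plxna3 differed by 0.13 and did not pass.

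Plxnc1, the receptor of Sema7a, read 8.36, 8.30, 8.88 and 8.81 in knockout-labelled and 8.04, 7.94, 7.84 and 7.89 in wildtype arrays. It rose by 0.66 (SE 0.13, limma adjusted p = 0.00729), while Sema7a differed by 0.01 (95% interval -0.33 to 0.36). Plxnb2, a receptor of class 4 semaphorins used by neural progenitors, went the other way, from 11.34 ± 0.06 to 10.96 ± 0.10 (SD, n = 4 each). Its fall was 0.38 (adjusted p = 0.00328). Plxnd1, the receptor of Sema3e that is best known from endothelium, differed by -0.10 (95% interval -0.26 to 0.05) beside the rise of its ligand. Plxnb1 and Plxnb3 did not pass (-0.14 and 0.28, limma adjusted p = 0.162 and 0.0576), though a second probe set of Plxnb1 fell by 0.36 (adjusted p = 0.0155 over all probe sets) and Plxnb3 passed without knockout-labelled replicate 2 (0.36, adjusted p = 0.00962).

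The neuropilins, co-receptors for class 3 semaphorins and for vascular endothelial growth factor, did not pass. Nrp1 read 10.43 ± 0.08 against 10.38 ± 0.02, a difference of 0.05 (95% interval -0.08 to 0.18). Nrp2 depended on the probe set. Its brightest read 9.77, 9.58, 9.93 and 9.78 in knockout-labelled and 9.56, 9.51, 9.49 and 9.54 in wildtype arrays, a difference of 0.24 (limma adjusted p = 0.0584) although the groups did not overlap. A pair of its other probe sets rose by 0.73 and 0.75 (adjusted p = 0.000796 and 0.00134 over all probe sets), and with the mean of its probe sets Nrp2 rose by 0.52 (adjusted p = 0.00415). It also passed without knockout-labelled replicate 2 (adjusted p = 0.0110). Across all members, 22 called ones had several probe sets. In 15 of them another probe set was called in the same direction and in 0 in the opposite one. In the others, Efna2, Efna5, Plxna1, Plxna4, Robo1, Ntn1 and Ntn4, no other probe set was called. The second probe sets of Efna2, Efna5 and Plxna4 gave 0.26, 0.05 and 0.25 (limma adjusted p = 0.0610, 0.708 and 0.0722 over all probe sets).

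**Figure D3:**
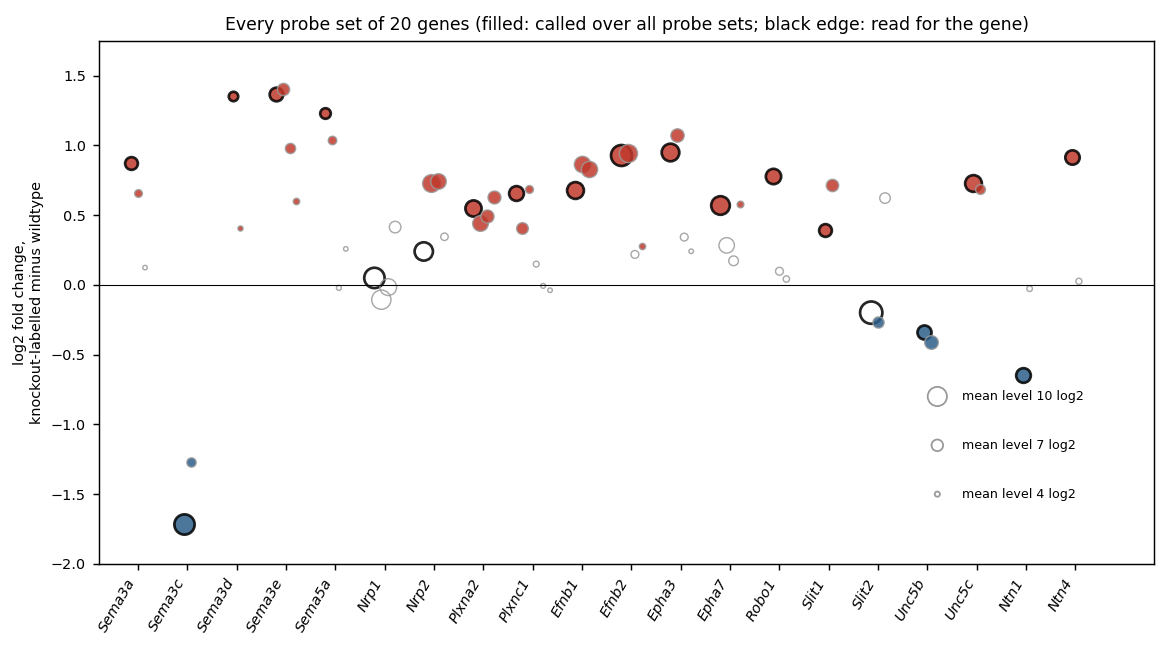
Log2 fold change, knockout-labelled minus wildtype, of every probe set of 20 members; circle area grows with mean level, filled circles passed over all probe sets and black edges mark the probe set read for the gene. Bright probe sets of Sema3e, Efnb1 and Efnb2 lie together, many open circles of low level lie near 0, and those of Nrp2 and Slit2 differ.

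Ephrins and their receptors rose together, in 5 of 8 ligands and 5 of 13 receptors, with 0 falling in either family. All 3 ephrin-B ligands, the transmembrane ephrins that also signal backwards, were among them. Efnb2, which marks arterial endothelium and shapes tissue boundaries, read 11.21, 10.98, 11.15 and 11.18 in knockout-labelled and 10.29, 10.22, 10.15 and 10.14 in wildtype arrays. It rose by 0.93 (SE 0.07, limma adjusted p = 3.18e-05), or 1.91-fold, and the gap between the groups was wider than the range within either. Efnb1 read 9.36, 9.40, 9.50 and 9.30 against 8.57, 8.79, 8.78 and 8.70 and rose by 0.68 (SE 0.07, adjusted p = 0.000195). Its other probe sets rose by 0.87 and 0.83.

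Efnb3, known from the ventral midline of the neural tube, read 10.19, 9.77, 10.15 and 10.52 in knockout-labelled and 9.61, 9.55, 9.38 and 9.56 in wildtype arrays. It rose by 0.63 (SE 0.14, limma adjusted p = 0.0107), with knockout-labelled replicate 2 nearest to the wildtype arrays. Among the 5 GPI-anchored ephrin-A ligands 2 rose. Efna2 read 8.64, 8.43, 8.56 and 8.59 against 8.14, 7.88, 8.04 and 8.10, a rise of 0.51 (SE 0.08, adjusted p = 0.00131). Efna5 rose by 0.33, from 9.31 ± 0.10 to 9.64 ± 0.07 (SD, n = 4 each; adjusted p = 0.00795). Efna1, Efna3 and Efna4 did not pass, with differences of -0.05, 0.05 and 0.23.

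On the receptor side 3 of 9 EphA and 2 of 4 EphB genes rose. Epha3 read 10.22, 9.83, 9.32 and 10.03 in knockout-labelled and 9.13, 8.88, 8.93 and 8.66 in wildtype arrays. It rose by 0.95 (SE 0.18, limma adjusted p = 0.00477), and a second probe set rose by 1.08. Its dimmest probe sets gave 0.34 and 0.24 and did not pass. Epha6 read 5.24, 5.43, 5.70 and 5.48 against 4.35, 4.60, 4.39 and 4.60, a rise of 0.98 (SE 0.10, adjusted p = 0.000200) at a low level. Its wildtype values lie close to the lower quartile of all probe sets, 4.34, and it has 1 probe set. Epha7, a receptor with a truncated natural isoform, read 10.23, 9.95, 10.14 and 9.79 against 9.56, 9.50, 9.49 and 9.27, a rise of 0.57 (SE 0.11, adjusted p = 0.00438). Its dimmest probe set rose by 0.58 (limma adjusted p = 0.00187 over all probe sets). Those between in level gave 0.28 and 0.17 and did not pass (0.0677 and 0.241).

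Ephb1, a receptor of the ephrin-B ligands, read 7.45, 7.92, 7.70 and 7.60 in knockout-labelled and 7.06, 7.11, 7.03 and 6.74 in wildtype arrays. It rose by 0.68 (SE 0.11, limma adjusted p = 0.00245). Ephb6, whose kinase domain is known to be inactive, read 6.55, 6.26, 6.63 and 6.67 against 6.35, 5.83, 5.93 and 5.94. It rose by 0.52 (SE 0.13, adjusted p = 0.0184), but knockout-labelled replicate 2 lay below wildtype replicate 1. The call was lost in 5 of 8 fits without 1 array, those without knockout-labelled replicate 1 or 4 and without wildtype replicate 2, 3 or 4 (adjusted p up to 0.0567). The other 8 receptors did not pass, with differences from -0.16 (Epha4) to 0.29 (Epha5). Ephb4, the venous partner of Efnb2, differed by 0.17 (95% interval 0.03 to 0.31, adjusted p = 0.0871) with no overlap, and passed without knockout-labelled replicate 2 (adjusted p = 0.0457).

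**Figure D4:**
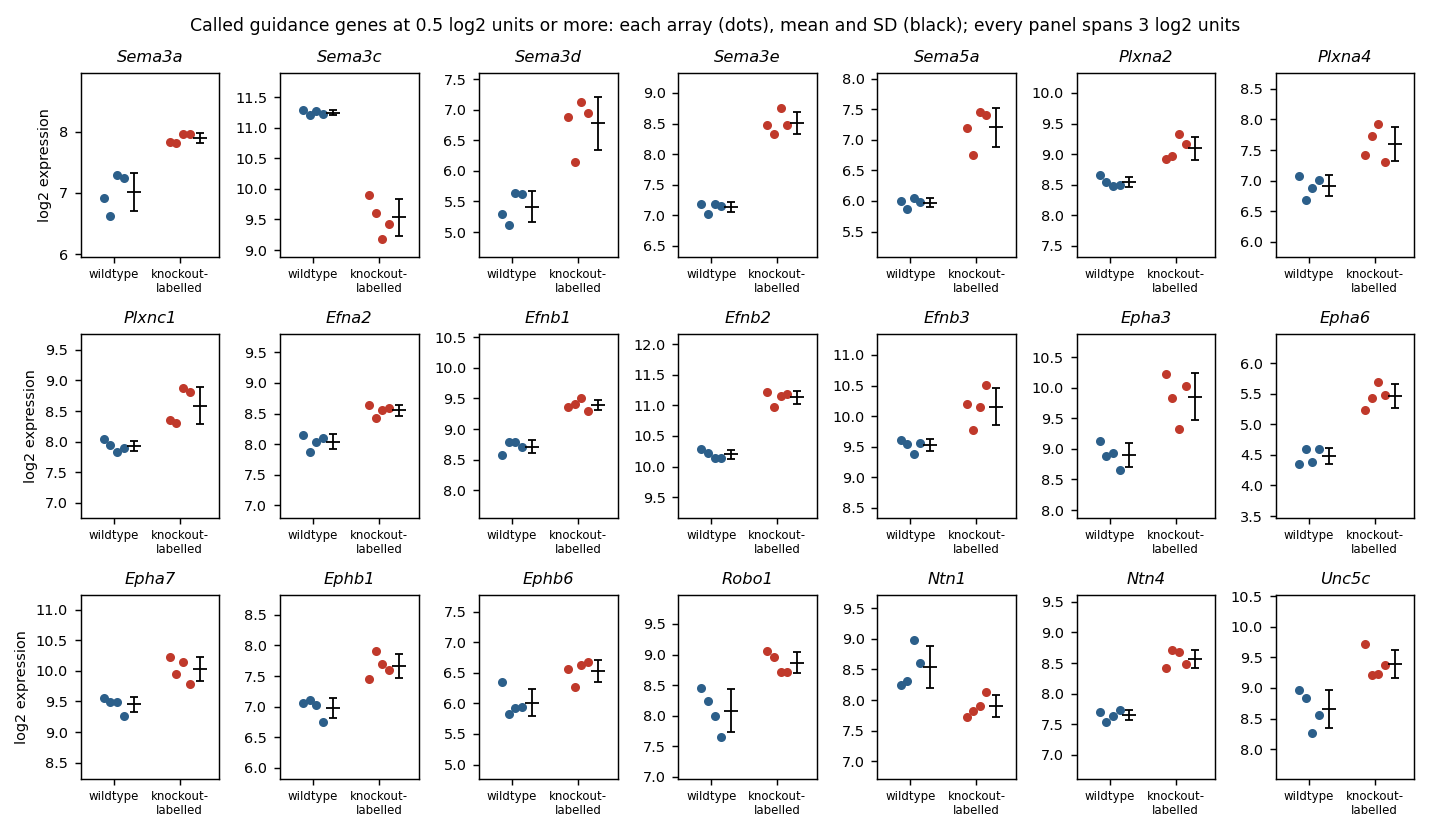
Log2 expression in each array for the 21 called members that differed by 0.5 or more, with mean and SD in black; every panel spans 3 log2 units, on its own range. Knockout-labelled arrays (red) lie above wildtype arrays (blue) in 18 panels, below them in the panels of Sema3c and Ntn1, and overlap them in that of Ephb6.

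Among 3 Slits 2 rose and 1 fell, by small amounts, and 2 of 3 Robo receptors rose. Slit1 rose by 0.39, from 7.26 ± 0.10 to 7.65 ± 0.15 (SD, n = 4 each; limma adjusted p = 0.0128), and a second probe set rose by 0.72. Slit3 rose by 0.35 (adjusted p = 0.0459) and Slit2 fell by 0.20, from 11.25 ± 0.02 to 11.05 ± 0.08 (adjusted p = 0.0437), and neither call was stable. Slit3 lost it with the block (adjusted p = 0.0558), with arrays centred on their medians (0.0705), with adjustment over all probe sets (0.0539) and in 6 of 8 fits without 1 array, all but those without knockout-labelled replicate 2 or wildtype replicate 4 (up to 0.113). Slit2 lost it with the block (0.0703), with adjustment over all probe sets (0.0623) and in all 8 fits without 1 array (0.0643 to 0.108). Slit2 also lost it without probe sets whose names end in _x_at, _s_at or _a_at (0.0514). Of its dimmer probe sets one fell by 0.27 and another differed by 0.62 in the other direction, and their mean with the brightest gave 0.051.

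Robo1, the main Slit receptor of many tissues, read 9.05, 8.97, 8.72 and 8.72 in knockout-labelled and 8.45, 8.24, 7.99 and 7.65 in wildtype arrays. It rose by 0.78 (SE 0.16, limma adjusted p = 0.00815), without overlap, while 2 dim probe sets gave 0.10 and 0.04. Robo2 rose by 0.43 (adjusted p = 0.0193) at a level below that lower quartile, from 3.17 ± 0.07 to 3.60 ± 0.23 (SD, n = 4 each). Its call was lost without wildtype replicate 2 (adjusted p = 0.0526). Epha6, Epha3, Robo1 and Robo2, which all rose, also follow each other on chromosome 16. Between them lie 16 other protein-coding genes, with 4, 12 and 0 between neighbours, and 10 of the 16 were measured. Of these 10, 0 rose and 2 fell in the limma test, beside 7.84% of all genes called higher and 11.7% lower. Those that fell were Gbe1 (-0.84), a glycogen branching enzyme, and Cggbp1 (-0.26), and the other 8 did not pass.

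Netrin genes split by ligand and by receptor. Ntn1, the classical floor plate attractant, read 7.72, 7.82, 7.90 and 8.14 in knockout-labelled and 8.25, 8.31, 8.99 and 8.61 in wildtype arrays. It fell by 0.64 (SE 0.16, limma adjusted p = 0.0196), with the top of one group close to the bottom of the other. The mean of its probe sets gave -0.34 and no call (adjusted p = 0.116), and the call was also lost without knockout-labelled replicate 1 (0.0608) or wildtype replicate 4 (0.0561). Ntn4, a laminin-binding netrin of basement membranes, read 8.41, 8.70, 8.68 and 8.49 against 7.70, 7.54, 7.64 and 7.73. It rose by 0.92 (SE 0.08, adjusted p = 7.79e-05), with a wide gap between groups. A dim further probe set of Ntn4 gave 0.03. Ntn3 and Ntn5 did not pass, with differences of 0.00 and 0.08.

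Unc5c, a repellent netrin receptor of migrating hindbrain neurons, read 9.71, 9.22, 9.24 and 9.37 in knockout-labelled and 8.96, 8.83, 8.27 and 8.55 in wildtype arrays. It rose by 0.73 (SE 0.16, limma adjusted p = 0.0112), and its second probe set by 0.69. Unc5b, the Unc5 receptor of vessels, fell by 0.33, from 8.15 ± 0.13 to 7.82 ± 0.10 (SD, n = 4 each; adjusted p = 0.0179), and its second probe set by 0.41. The Unc5b call was lost without knockout-labelled replicate 1 (adjusted p = 0.0520) and without wildtype replicate 3 (0.0559). Unc5a and Unc5d did not pass (0.13 and -0.04), nor did Neo1 (0.18, adjusted p = 0.0910), whose groups did not overlap and which passed without knockout-labelled replicate 2 (adjusted p = 0.0152) and with the mean of its probe sets (0.31, adjusted p = 0.00611).

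The receptor genes Dcc, Robo3 and Epha5 varied within groups more than any other member. Robo3 read 6.09, 6.99, 5.41 and 6.62 in knockout-labelled and 6.68, 6.59, 5.41 and 5.93 in wildtype arrays. Dcc read 9.45, 9.96, 8.69 and 9.39 against 9.82, 9.25, 8.45 and 8.44, and Epha5 read 7.39, 7.75, 6.55 and 7.19 against 7.50, 7.43, 6.32 and 6.45. Their pooled SDs were 0.64, 0.60 and 0.57, each above those of at least 99.1% of all genes. Differences between groups were 0.12, 0.38 and 0.29 (limma adjusted p = 0.872, 0.518 and 0.610). At this spread the 95% interval of Dcc, -0.39 to 1.15, holds changes as large as those of the called receptors.

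A list of 26 neuron markers varied in the same arrays. Its mean level was 7.24, 8.15, 6.81 and 7.21 in knockout-labelled and 7.89, 7.38, 6.61 and 6.42 in wildtype arrays. Knockout-labelled replicate 2 was the highest of its group in the list and in all 3 receptors, and knockout-labelled replicate 3 the lowest. Only Gad1 of the 26 rose and 0 fell, and 2 had an unadjusted p under 0.05 (limma). The differences were positive in 22 of the 26 and negative in 4, with a median of 0.22 beside 0.18 over the guidance genes. The list mean had an SD of 0.57 in knockout-labelled and 0.68 in wildtype arrays. The part of neurons in the differences of guidance genes was not tested.

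**Figure D5:**
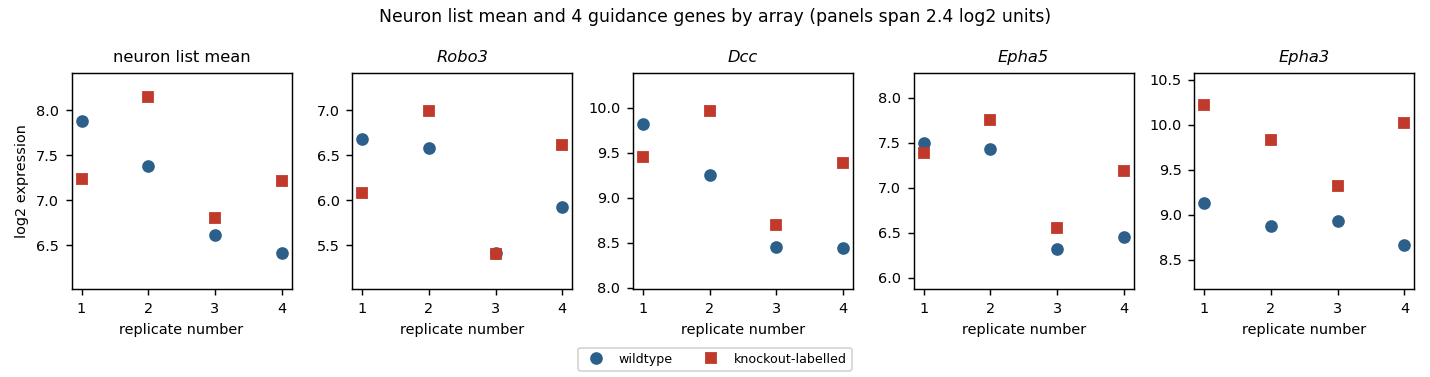
Mean log2 level of the neuron list and log2 expression of Robo3, Dcc, Epha5 and Epha3 in each array, by replicate number (wildtype circles, knockout-labelled squares); every panel spans 2.4 log2 units. Robo3, Dcc and Epha5 spread over more than 1 unit within each group, as the list does, while the groups separate only for Epha3.

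Other cell types differed between the groups in the same arrays, and in bulk tissue fewer cells of a type and less RNA per cell cannot be told apart. Of the 23 choroid plexus epithelium markers 1 rose, Otx2 itself, beside the 19 that fell. Their summed level, as log2 of the sum of linear values, was 15.89 to 16.08 in knockout-labelled and 16.42 to 16.50 in wildtype arrays. Of 20 stroma and meninges markers 15 rose and 0 fell, with a median of 0.73 and a summed level of 15.42 to 15.70 against 14.96 to 15.06. Of 20 macrophage markers 14 rose and 0 fell, median 0.54, with 13.63 to 14.10 against 13.09 to 13.29. The part of these differences in the rises of ephrins, Eph receptors and semaphorins was not tested.

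The remaining lists had smaller medians. Over all genes 7.84% were called higher and 11.7% lower. Of 15 pericyte and smooth muscle markers 4 rose (26.7%) and 2 fell (13.3%), median 0.05. Their summed level was 12.63 to 12.81 against 12.55 to 12.60. Of 20 endothelial markers, a compartment in which Efnb2, Plxnd1 and Unc5b are known to act, 1 rose (5%) and 3 fell (15%). Their median was -0.09, with 13.26 to 13.47 against 13.39 to 13.59. Neural progenitor markers rose in 4 of 19 (21.1%) and fell in 0, median 0.31, with 14.08 to 14.33 against 13.76 to 14.14. Peripheral glia and neural crest markers rose in 2 of 10 (20%) and fell in 2 (20%), median 0.03, from -1.33 (Mitf) to 2.12 (S100b). Their summed level was 12.26 to 12.53 against 12.12 to 12.45. Erythroid markers rose in 1 of 10 (10%) and fell in 1 (10%), median -0.12, with 14.67 to 14.99 against 14.84 to 14.95. No probe set reads 0 on this scale, so no marker is listed as absent.

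Partners of these families inside and outside the cell also included genes that rose. Of 57 measured co-receptors, adhesion partners and cytoplasmic effectors 10 rose, 3 fell and 44 did not pass, with a median of 0.19. That is 17.5% higher and 5.26% lower, beside 7.84% and 11.7% of all genes. Rgma, a repulsive ligand of neogenin, rose by 0.67, from 6.81 ± 0.21 to 7.48 ± 0.03 (SD, n = 4 each; limma adjusted p = 0.00103), and Flrt2, a ligand of Unc5 receptors, rose by 0.43 (adjusted p = 0.00115). Dscam, an adhesion molecule that can act as a netrin receptor, fell by 0.61 (adjusted p = 0.00145). Ntng1, the GPI-anchored netrin-G1 that does not bind classical netrin receptors, fell by 0.48 (adjusted p = 0.00194), and the actin-binding protein gene Ablim1 fell by 0.28 (adjusted p = 0.0114). A further 7 that rose, named after their values were seen, were Cxcl12 (1.09), Met (1.00), Ngef (0.46), Srgap1 (0.45), Limk1 (0.43), Fes (0.33) and Gpc1 (0.31), and Cxcl12 is also in the stroma list.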

How the data were processed

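Each array's deposited file gives 1 log2 level for every probe set. According to the submitters' processing notes the authors used RMA; its software and version are not named in the sources. RMA brings array distributions together, so a change in total RNA cannot be seen, and detection calls were not used. Of 45101 probe sets, 34945 had 1 gene symbol, 932 several and 9160 none, and 64 were controls. Each of 18193 genes was read from its probe set of highest mean across the 8 arrays. All 71 members matched the RefSeq gene table by gene identifier.

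Groups were compared with limma 3.58.1 in R 4.3.3 (lmFit, eBayes, two-sided, genotype only), adjusted over all genes by Benjamini-Hochberg and called under 0.05. The procedure was tested on simulated data. The number of arrays limits the precision. Members and lists were chosen with earlier results of these data known. Array values were given for called members differing by at least 0.5, and guidance partners were named as the 3 called with the smallest p in each direction. 1 of these partners is not reported here.

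Arrays sharing a replicate number were compared after subtracting group means; over genes their correlations were 0.131, 0.232, 0.160 and 0.223, all above 0.1, so the replicate number was taken as a pairing and fitted as a block beside the unblocked fit. Arrays of unlike number gave -0.296 to 0.294, the highest being knockout-labelled replicate 3 with wildtype replicate 4. Over members alone the same-number values were 0.293, 0.584, 0.625 and 0.0803, and that unlike pair gave 0.577. This pairing comes from the values, since no label gives its meaning. Promoter windows came from RefSeq's GRCm38.p6 table. Alternatives are listed in the closing section.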

Additional observations from a re-analysis of the deposited data

Results flagged for a closer look

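In 162 groups of 4 arrays tested for a lone extreme array with Dixon's rule, 7 were marked, and chance marks about 1 in 20. In the wildtype group Efna5 read 9.46 in replicate 4 (others 9.25 to 9.27), Epha2 read 7.39 in replicate 1 (others 7.47), Ntn3 read 4.47 in replicate 2 (others 4.11 to 4.17) and Plxna3 read 8.12 in replicate 1 (lowest 7.98). Also in the wildtype group Sema3f read 9.76 in replicate 1 (others 9.87 to 9.89) and Sema4b read 6.37 in replicate 3 (others 6.71 to 6.77). In the knockout-labelled group Slit2 read 10.93 in replicate 2 (others 11.08 to 11.10).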

How the results depend on the processing

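Alternatives were the replicate block, weighted arrays, a variance prior that follows level, other choices of probe set, a filter on dim genes, other normalizations, a stricter threshold and leaving out each array. Of 31 called members, 19 kept their call in each alternative in which they were fitted; 15 of these were fitted in all, and 4 (Epha6, Plxna4, Sema3d and Sema5a) lay below the median level and so were not in the fit of brighter genes. In every fit without 1 array 23 were called, and without knockout-labelled replicate 2 a further 8 members passed. Without that array 10.1% of all genes were higher and 11.5% lower, beside 7.84% and 11.7% in the main fit. The replicate block gave the same counts, 26 higher and 5 lower, with 28 of the 31 kept. With the block 8.36% of all genes were higher and 11.7% lower. The block changed no member calls beyond those given with Sema4g, Sema4b, Sema3g, Sema6d, Slit2 and Slit3, and 12 guidance partners were higher. At an adjusted p under 0.01, 17 members were higher and 2 lower, and 5 guidance partners were higher. At that threshold 3.3% of all genes were higher and 7.41% lower. Among genes above the median level the member median was 0.22. In that fit 16% of all genes were higher and 20% lower, more than in the main fit. In fits without 1 array, 21 to 32 members were higher and 2 to 5 lower, the member median ran from 0.18 to 0.22, and 7 to 14 guidance partners were higher and 3 lower. The share of all genes moved too, from 4.97% to 10.1% higher and from 8.98% to 11.5% lower. With the mean of probe sets Slit2 gave 0.051 (adjusted p = 0.782). In these settings 13 further members passed at least once. Arrays centred on their medians moved the median of all genes to -0.03. RMA compresses dim probe sets, which limits Epha6 and Robo2.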
